A study of Mus musculus with 38 samples.

Results

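RNA made from the mitochondrial genome was measured in mouse intestinal epithelial cells with and without hexokinase 2, before and during colitis. All genes that the count tables place on chromosome MT were taken, which gave 37 of 46078 genes: 13 for messenger RNA, 2 for ribosomal RNA and 22 for transfer RNA. Of these 37 genes, 26 had a count in every one of the 38 libraries. Each library came from 1 mouse of the C57BL/6 strain. KO mice (Hk2ΔIEC) carry a floxed Hk2 allele and Cre under the Villin promoter, which is active in intestinal epithelium, so that Hk2 remains in other cell types. WT mice are Hk2fl/fl littermates, so floxed Hk2 is common to all groups. The WT groups had 4 mice on day 0, 7 on day 3 and 7 on day 7, and the KO groups had 5, 8 and 7. Days 3 and 7 are days of 1.5% dextran sodium sulfate (DSS) in drinking water, an agent that damages the colonic epithelium; these were males of 10 to 12 weeks with both genotypes sharing cages. Day 0 mice were untreated, and their age is not tied to a sample in the labels, which give basal mice an age of 9 to 11 weeks or, in a second range, of 86 to 92 weeks. The series text names colon as the tissue, whereas the sample labels name isolated epithelial cells.

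Both strands of the mitochondrial genome are transcribed into long precursors, and most messenger and ribosomal RNAs are released where transfer RNAs between them are cut out. The messengers encode core subunits of the respiratory chain and of ATP synthase, which work together with many subunits encoded in the nucleus, and the ribosomal and transfer RNAs serve only translation inside the mitochondrion. Copies of mitochondrial DNA also lie in nuclear chromosomes, and a short read from a part that is identical in such a copy cannot be placed. Hexokinase 2 performs the first step of glycolysis and can bind to the outer mitochondrial membrane.

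Sequences of the transcripts that the results turn on are given first, from GENCODE M21 transcripts of the GRCm38 build, 5′ to 3′ along the transcript. The first set shows where exact matches to a nuclear copy start, end or cover a messenger. Capitals mark bases that lie in 50-base stretches found unchanged in the transcript of the pseudogene named below. Lower case marks bases in no such stretch, which need not be where the copy itself ends, and other copies are not marked. In mt-Co1 (chrMT:6334-6453, plus strand) the copy is Gm29216, in mt-Nd4 (chrMT:10983-11102, plus strand) it is Gm28439, and in mt-Nd3 (chrMT:9459-9578, plus strand) it is Gm28438.
mt-Co1: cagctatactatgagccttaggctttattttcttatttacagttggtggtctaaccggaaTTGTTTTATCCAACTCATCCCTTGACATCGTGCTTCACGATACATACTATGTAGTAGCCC
mt-Nd4: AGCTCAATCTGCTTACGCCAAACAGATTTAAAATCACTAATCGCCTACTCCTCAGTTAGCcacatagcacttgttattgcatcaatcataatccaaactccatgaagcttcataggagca
mt-Nd3: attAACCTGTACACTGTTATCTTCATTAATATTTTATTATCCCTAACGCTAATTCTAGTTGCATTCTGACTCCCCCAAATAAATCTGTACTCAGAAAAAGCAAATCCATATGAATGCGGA
The second set is the transfer RNAs with the most counts and those that differed between days: mt-Tp for proline (chrMT:15356-15422, minus strand), mt-Te for glutamate (chrMT:14071-14139, minus strand), mt-Ts2 for serine (chrMT:11613-11671, plus strand), mt-Tl2 for leucine (chrMT:11671-11741, plus strand) and mt-Tg for glycine (chrMT:9391-9458, plus strand).
mt-Tp: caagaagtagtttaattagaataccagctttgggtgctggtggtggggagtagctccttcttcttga
mt-Te: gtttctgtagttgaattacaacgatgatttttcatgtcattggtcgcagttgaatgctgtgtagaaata
mt-Ts2: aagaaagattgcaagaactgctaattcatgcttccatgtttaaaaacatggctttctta
mt-Tl2: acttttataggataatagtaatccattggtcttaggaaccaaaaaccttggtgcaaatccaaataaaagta
mt-Tg: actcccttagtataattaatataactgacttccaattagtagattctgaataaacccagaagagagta
The third set is from the ribosomal pair, mt-Rnr1 (12S, chrMT:70-1024) and mt-Rnr2 (16S, chrMT:1094-2675), which lie on the plus strand with only mt-Tv between them. It shows the 3′ end of each (chrMT:965-1024 and chrMT:2616-2675) and the longest run of A in each, in capitals (chrMT:680-734 and chrMT:1463-1519), because the libraries were selected for poly(A).
mt-Rnr1 3′ end: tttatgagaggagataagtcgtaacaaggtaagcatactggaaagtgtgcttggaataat
mt-Rnr2 3′ end: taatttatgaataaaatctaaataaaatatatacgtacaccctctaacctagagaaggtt
mt-Rnr1 longest run: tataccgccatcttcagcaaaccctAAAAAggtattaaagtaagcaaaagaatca
mt-Rnr2 longest run: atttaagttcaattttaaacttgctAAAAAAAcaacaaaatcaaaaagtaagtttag
Both genes are rich in A, with 37.8% A over 955 bases in mt-Rnr1 and 38.2% A over 1582 bases in mt-Rnr2. The longest run of A has 5 bases in mt-Rnr1 and 7 in mt-Rnr2, and runs of 6 or more number 0 in mt-Rnr1 and 4 in mt-Rnr2. Among the messengers the share of A runs from 22.2% in mt-Nd6 to 40.7% in mt-Atp8. Their longest run of A has from 3 bases in mt-Nd6 to 8 in mt-Nd2, which has 3 runs of 6 or more. The part of such runs in what the kit captured was not tested.

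Total counts were 10.5 to 44.9 M per library on day 0 and 25.2 to 60.6 M on days 3 and 7, so that 3 counts, the limit that a count of 0 allows, stand for 0.0668 to 0.286 and 0.0495 to 0.119 CPM (counts per M counts, M being mega). Day 0 libraries carry another library series prefix than the later ones, so day 0 and library series cannot be told apart. Levels below are CPM after TMM scaling, edgeR's scaling of each library to the others. Hk2 was at 347 ± 90.6 CPM in WT and 76.5 ± 31.8 in KO on day 0 (SD, n = 4 and 5), at 173 ± 47.1 and 144 ± 119 on day 3 (n = 7 and 8), and at 332 ± 127 and 139.6 ± 71.5 on day 7 (n = 7 each). The library labelled d3_KO_345 had 435 CPM, above all WT libraries of its day, and the next KO library had 128. Apart from this library, d0_KO_32, d3_WT_381 and d7_WT_386 stood apart from their groups by their mitochondrial shares (below), and results are also given without these 4. The lowest levels of mt-Ts2 in WT and of mt-Tl2 in KO given below are under this limit of 3 counts and rest on 2 counts each. The 7 epithelial markers summed to 7751 to 14055 CPM over all libraries, and no marker of any list was at 0 in every library.

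Of the 13 messengers, 8 had more than 10 counts in every library: mt-Nd1, mt-Nd2, mt-Nd3, mt-Nd4, mt-Nd5 and mt-Nd6 of complex I, mt-Cytb of complex III and mt-Co1 of complex IV. The other messengers were almost empty in these tables. Their median counts per library were 10.5 for mt-Co2 and 13 for mt-Co3 of complex IV, 4 for mt-Atp8 and 11 for mt-Atp6 of ATP synthase, and 1 for mt-Nd4l of complex I. By comparison the medians were 3432646 counts for mt-Co1 and 857373.5 for mt-Cytb. The stretch of the genome that holds these 5 and mt-Nd3, from mt-Co2 (start at 7013) to mt-Nd4l (end at 10173), is the one that an array of pseudogenes on chromosome 1 repeats in the same order (GRCm38 chr1:24611535-24616197, minus strand, 7 genes from Gm28439 to Gm29216). Of all 50-base windows of the transcript, 100% are shared with a nuclear transcript in mt-Co2, 99.9% in mt-Co3, 99.5% in mt-Atp6, 98.8% in mt-Nd4l and 98.0% in mt-Nd3. mt-Atp8 shares none with an annotated transcript. By gene order most of its counterpart on chromosome 1 would lie in the unannotated gap of 233 bases between Gm10925 and Gm28661. The sequence of that gap was not examined.

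In the partly covered genes the border of the exact matches is visible in the printed sequences. mt-Nd4 is shared over its first 876 bases, 62.2% of its windows, and mt-Co1 over 765 of 1496 windows (51.1%), of which the 479 bases from 1067 to 1545 lie in Gm29216 and others in Gm13340 on chromosome 2. In mt-Nd2 8.19% of windows are shared, in mt-Nd5 7.61% and in mt-Rnr2 1.04%, and mt-Nd1, mt-Nd6, mt-Cytb and mt-Rnr1 share none. The genes with at least 98.0% of windows shared had 1 to 506.5 median counts, whereas no other messenger but mt-Atp8 had under 88328.5. The count command in the file headers sets no option to keep reads that fit several places. Levels of different messengers may therefore compare mainly the parts that are not shared, and the 5 low messengers are uncertain in every comparison below. How the read pairs were placed was not examined, so the cause of the low counts was not tested.

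The counts of some nuclear copies, and of the messengers they cover, jumped in single lanes. Each library was sequenced in 2 lanes, which hold the same library. For the well-counted messengers other than mt-Nd3 the first lane held 49.1 to 51.0% of a gene's counts in every library. Gm29216 had 1318 to 1778 counts per M mt-Co1 counts in 9 libraries and at most 281 in the other 29, and in all 9 nearly all of the excess was in 1 lane. In d3_KO_350, for example, Gm29216 had 305 counts in lane 1 and 6590 in lane 2, and in d3_WT_348 it had 7095 and 407. Gm13340, the chromosome 2 copy, was at 883 to 5244 per M mt-Co1 counts in 6 libraries and at most 290 in the rest, and in 5 of these 6 the lanes differed more than 3-fold. The high libraries of both copies include both genotypes.

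The same was seen in 3 of the low messengers. mt-Co3 had 2455 counts in lane 1 and 5 in lane 2 of d3_WT_353, and 1754 and 28 in d3_KO_349. These 2 libraries had 644 and 457 mt-Co3 counts per M mt-Co1 counts, and no other library had more than 13.4. mt-Atp6 had 142 and 645 counts in the lanes of d3_KO_349 and 396 and 42 in d3_KO_385, and mt-Co2 had 5 and 270 in d3_KO_350 and 160 and 5 in d7_WT_386. Of 26 members with at least 60 counts in some library, only mt-Co2, mt-Atp6 and mt-Co3 differed more than 3-fold between the lanes of a library. A difference between groups in these 3 genes rests at least in part on such lanes, as given with each result.

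**Figure D1:**
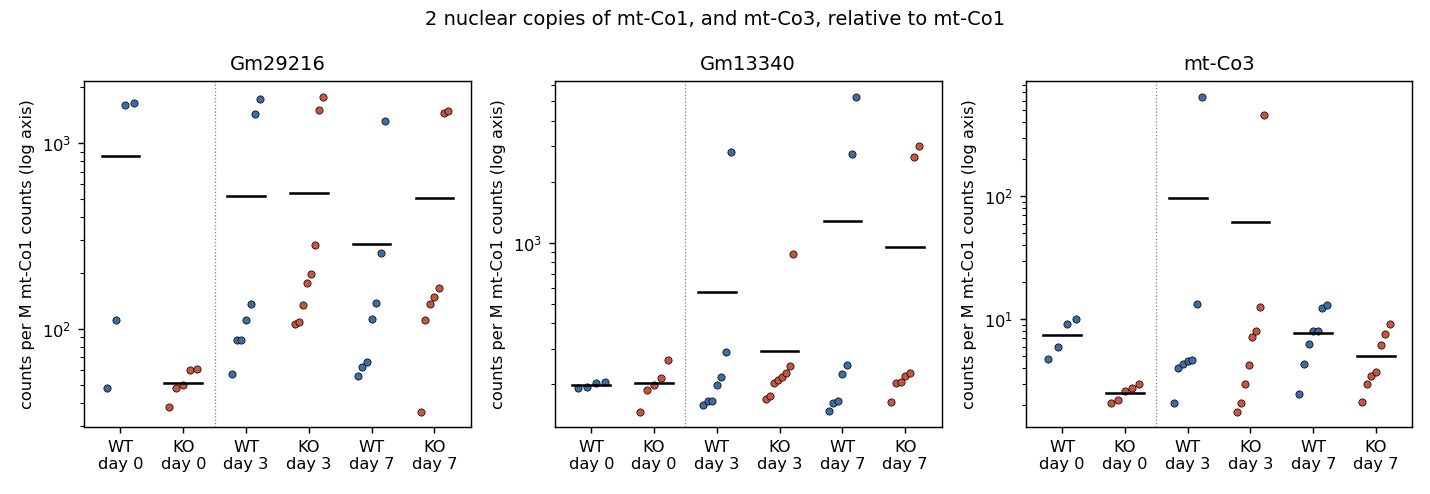
Counts of Gm29216, Gm13340 and mt-Co3 per M mt-Co1 counts (log y axes) in the 6 groups (x axis), 1 point per library. Gm29216 splits into 9 libraries at 1318 or more and 29 at 281 or less, and mt-Co3 has 2 libraries at 457 and 644.

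The share of all counts that came from the mitochondrial genome did not separate the genotypes on any day. On day 0 the messengers made up 4.96, 2.67, 4.41 and 2.96% of the counts in the 4 WT libraries and 4.03, 16.2, 2.90, 5.18 and 4.51% in the 5 KO libraries, where 16.2% is d0_KO_32. Apart from that library all KO values lay between 2.90 and 5.18%, within or next to the WT range. On day 3 the lowest, median and highest messenger shares were 5.87, 14.5 and 37.6% in WT and 10.1, 15.6 and 23.3% in KO, and on day 7 10.4, 14.1 and 24.5% and 10.4, 14.3 and 16.0%. The groups overlapped on both days. The highest WT libraries, d3_WT_381 at 37.6% and d7_WT_386 at 24.5%, were well above the next ones of their groups at 15.8 and 15.9%. Group means were 3.75 ± 1.11% and 6.56 ± 5.43% on day 0 for WT and KO, 15.6 ± 10.5% and 16.2 ± 4.44% on day 3, and 14.8 ± 4.77% and 13.3 ± 2.27% on day 7 (SD). In bulk samples, fewer cells of a type and less RNA per cell cannot be told apart. Sums over the members were not tested, since the members were chosen with results known.

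The ribosomal RNAs showed the opposite pattern over the days. They took 6.25 to 45.6% of all counts on day 0, more than the messengers in every one of the 9 libraries, and 0.352 to 3.95% on days 3 and 7, less than the messengers in all 29. The ratio of ribosomal to messenger counts was 2.16 to 3.02 on day 0 and 0.0409 to 0.105 later, with no overlap. Within the later days the ribosomal share was 1.29 ± 1.21% and 1.03 ± 0.329% on day 3 in WT and KO, and 1.06 ± 0.532% and 0.868 ± 0.268% on day 7. Transfer RNAs took 0.00473 to 0.0176% of counts on day 0 and 0.0225 to 0.158% later. Poly(A) selection keeps only part of the ribosomal and transfer RNA, so these shares describe what the kit captured. The day 0 libraries are those of the other library series, and their part in this difference cannot be told apart from that of the day.

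In the library d0_KO_32 all mitochondrial genes together took 61.7% of the counts, and 6.69 M counts remained for nuclear genes. In d3_WT_381 they took 41.7%, with 15.6 M nuclear counts left, and in d7_WT_386 26.6%, with 18.5 M. In all 3 both the messengers and the ribosomal RNAs were the highest of their group. The ribosomal to messenger ratio of d3_WT_381, at 0.105, was also the highest of all later libraries, and the other 14 of day 3 lay at 0.0489 to 0.0816. Without these libraries the mean messenger share was 4.16% in KO on day 0, 11.9% in WT on day 3 and 13.2% in WT on day 7, and the mean ribosomal share 10.1, 0.851 and 0.912%.

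**Figure D2:**
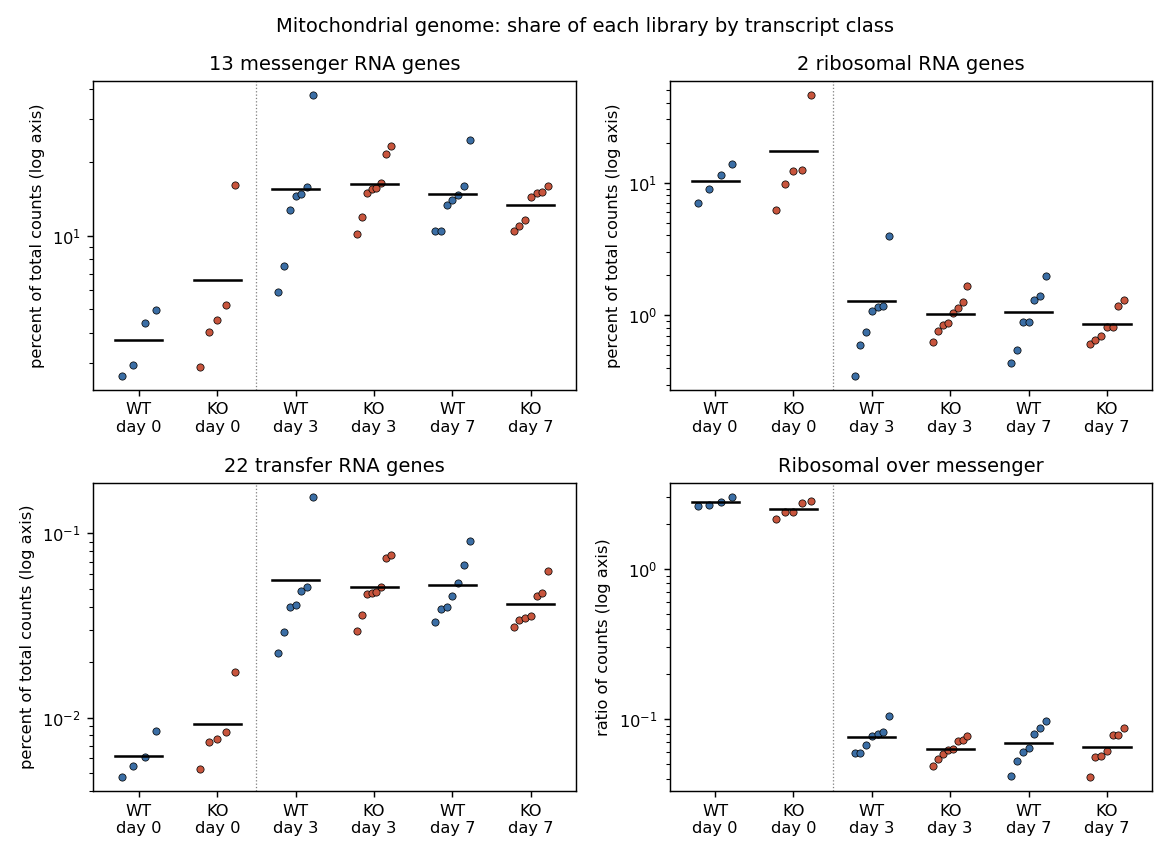
Messenger, ribosomal and transfer RNA as percent of total counts, and the ratio of ribosomal to messenger counts (log y axes), by group (x axis); points are libraries, lines are group means, and the dotted line separates day 0. The ratio lies at 2.16 to 3.02 on day 0 and at 0.0409 to 0.105 on days 3 and 7 in both genotypes.

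Between mt-Rnr2 and mt-Rnr1 a difference between days 3 and 7 was found that a library's scaling cannot set, because both counts come from the same library. mt-Rnr1 is the RNA of the small mitochondrial ribosomal subunit and mt-Rnr2 that of the large one. On day 3 the lowest, median and highest ratios of mt-Rnr2 to mt-Rnr1 counts were 2.22, 2.46 and 2.80 in WT and 2.26, 2.31 and 2.47 in KO, and on day 7 1.37, 1.68 and 1.93 and 1.81, 1.95 and 2.01. In both genotypes every day 7 library was below every day 3 library. The ratio fell by 0.61 on the log2 scale in WT (exact permutation test, two-sided, p = 0.000583, n = 7 and 7) and by 0.27 in KO (p = 0.000311, exact permutation test, n = 8 and 7). Both are the smallest p these group sizes can give, and both had an adjusted p of 0.00728 over 25 tests, 5 ratios in 5 comparisons.

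The fall was larger in WT than in KO. KO lay 0.10 below WT on day 3 on the log2 scale (exact permutation p = 0.0351, adjusted p = 0.146) and 0.24 above WT on day 7 (exact permutation p = 0.00583, adjusted p = 0.0486). The genotype difference on day 7 minus that on day 3 was 0.344 in log2, with an exact permutation p of 0.000307 over 22084920 labellings and an adjusted p of 0.00154 over the 5 ratios. Genotype labels were exchanged within each day. The p therefore refers to no genotype difference on either day, rather than to an equal difference on both. This test was added after the ratios were seen. Across 29 fits that each left out 1 library the value was 0.302 to 0.383 with adjusted p of 0.000157 to 0.00514, and each lane alone gave adjusted p no higher than 0.00252. The day 7 difference by itself is less firm: WT and KO overlapped, and leaving out 1 library lifted its adjusted p to as much as 0.0971 and above 0.05 in 12 of 14 cases. Without the 4 libraries that stand apart it was 0.27 (adjusted p = 0.0680, exact permutation test).

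On the CPM scale the same pair read as follows. mt-Rnr1 had lowest, median and highest levels of 876, 2713 and 15935 CPM in WT on day 3 and 1563, 3161 and 8207 on day 7, and mt-Rnr2 had 2151, 7146 and 42017 and 2629, 5741 and 15045. In KO, mt-Rnr1 was at 1824, 2734 and 5178 on day 3 and 1864, 2697 and 4427 on day 7, and mt-Rnr2 at 4324, 6226 and 11792 and 3744, 5079 and 8240. All these ranges overlapped between days. Neither gene passed the test between days 3 and 7: in WT the log2 fold change of mt-Rnr2 was -0.64 (SE 0.59, adjusted p = 0.496) and that of mt-Rnr1 0.02 (SE 0.56, adjusted p = 0.990), and in KO -0.36 (SE 0.23, adjusted p = 0.315) and -0.10 (SE 0.24, adjusted p = 0.835), all by edgeR. The spread that libraries share within a group cancels in the ratio and stays in the CPM.

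On day 0 the ratio was 8.91, 8.90, 8.61 and 6.90 in the 4 WT libraries and 8.98, 7.33, 9.37, 8.37 and 8.80 in the 5 KO libraries. These overlap, with a KO minus WT difference of 0.04 in log2 (exact permutation p = 0.619, adjusted p = 0.860). Every day 0 library lay above every later one, of which the highest was 2.80, and the library series differs there too.

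Other ratios between genes along the genome held no difference past the threshold. mt-Nd5 to mt-Nd1, a late against an early messenger of the plus strand, was 0.531, 0.571 and 0.620 (lowest, median, highest) in WT and 0.568, 0.617 and 0.649 in KO on day 3, and 0.460, 0.572 and 0.658 and 0.594, 0.627 and 0.649 on day 7. KO tended to the upper end of an overlapping range on both days, with log2 differences of 0.10 (exact permutation p = 0.0317, adjusted p = 0.146) and 0.18 (p = 0.0303, adjusted p = 0.146, exact permutation test). Without d7_WT_419 the day 7 value had an adjusted p of 0.0291, so this call depends on 1 library. mt-Nd6 to mt-Cytb, neighbours on opposite strands, was 0.0783 to 0.136 on days 3 and 7, and mt-Co1 to mt-Cytb, the messengers with the highest counts, was 3.34 to 4.59. mt-Rnr2 to mt-Nd1 was 0.254 to 0.673 on those days, and its fall of 0.41 in log2 from day 3 to day 7 in WT did not pass (exact permutation p = 0.0559, adjusted p = 0.200). In all, 3 of the 25 tests passed, and 6 had an unadjusted p under 0.05. The counting ignored strand, so counts of mt-Nd6 and of the transfer RNAs of the minus strand may include antisense RNA and cannot be told apart from it.

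**Figure D3:**
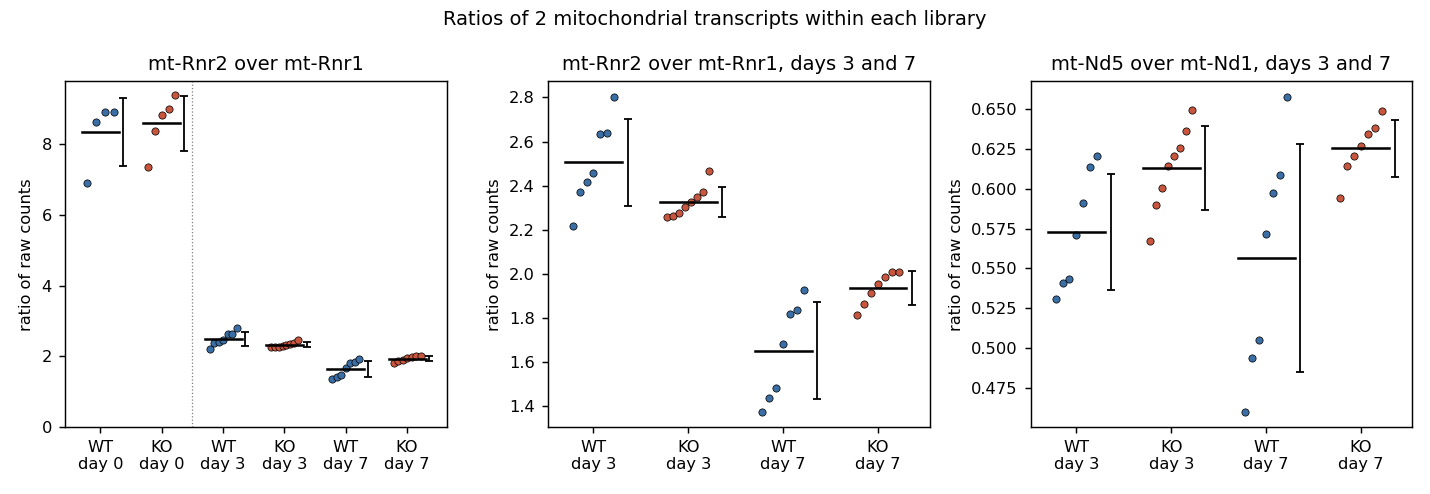
Ratio of mt-Rnr2 to mt-Rnr1 counts in all 6 groups and on days 3 and 7 alone, and of mt-Nd5 to mt-Nd1 on days 3 and 7 (y axes), by group (x axis); points are libraries, lines are means and bars SD. The mt-Rnr2 to mt-Rnr1 ratio has no overlap between day 3 (2.22 or more) and day 7 (2.01 or less).

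Loss of hexokinase 2 went with no called difference in any mitochondrial gene on any day. On day 0, 0 of 20 tested members passed edgeR's quasi-likelihood test at an adjusted p under 0.05, where 0.0335% of all genes tested did, and 2 of 20 had an unadjusted p under 0.05. On day 3 the counts were 0 of 28 with a background of 0.00647% and 1 unadjusted, and on day 7 0 of 26 with 0.00642% and 1 unadjusted. DESeq2's Wald test, and each other alternative, also called 0 members on all 3 days. Of the 37 genes, 29 had enough counts to be tested somewhere, and mt-Tf, mt-Tv, mt-Ty, mt-Ts1, mt-Td, mt-Tk, mt-Tr and mt-Nd4l were tested nowhere.

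Complex I is represented by mt-Nd1, mt-Nd2, mt-Nd4, mt-Nd5 and mt-Nd6, all of which build its membrane arm, where protons are pumped. On day 7 mt-Nd1 had lowest, median and highest levels of 10335, 13772 and 31073 CPM in WT and 8942, 12265 and 18359 in KO, and the groups overlapped. The log2 fold change KO against WT was -0.42 (SE 0.26, adjusted p = 0.477), by edgeR. It was -0.20 (SE 0.22, adjusted p = 0.707) for mt-Nd5, -0.21 (SE 0.22, adjusted p = 0.690) for mt-Nd4 and -0.17 (SE 0.25, adjusted p = 0.784) for mt-Nd2. On day 3 mt-Nd1 was at 5674, 12143 and 62426 CPM in WT and 9176, 13664 and 25810 in KO, again overlapping, with a log2 fold change of -0.21 (SE 0.45, adjusted p = 0.895).

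mt-Nd6, the only messenger of the minus strand, stood at 1651, 2381 and 4900 CPM in WT and 1490, 1953 and 3357 in KO on day 7, with overlap and a log2 fold change of -0.30 (SE 0.25, adjusted p = 0.602), by edgeR. mt-Cytb, the core of complex III, was at 16293, 19308 and 42139 CPM in WT and 14584, 21243 and 24750 in KO, with -0.19 (SE 0.23, adjusted p = 0.728). On day 3 the mt-Cytb levels were 8025, 18444 and 82480 and 15269, 21896 and 37243, with -0.08 (SE 0.42, adjusted p = 0.962). In each of these comparisons the ranges of the groups overlapped.

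mt-Co1, the catalytic subunit of complex IV, was at 27907, 84371 and 314861 CPM in WT and 58373, 89362 and 150951 in KO on day 3, and at 57511, 83593 and 171679 and 58848, 82302 and 113655 on day 7. The log2 fold changes were -0.11 (SE 0.44, adjusted p = 0.946) and -0.22 (SE 0.27, adjusted p = 0.740), by edgeR. On day 0 the 4 WT libraries ran from 18710 to 40836 CPM and the 5 KO libraries from 20779 to 253205, where the next highest KO library was at 43084. The fold change was 1.44 (SE 0.71, adjusted p = 0.500).

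The size of the genotype difference, and on days 3 and 7 the sign of its median, changed when a single library was left out. Over the 8 well-counted messengers the median log2 fold change on day 0 was 1.47, and 0.15 without d0_KO_32. On day 3 it was -0.12, and 0.58 without d3_WT_381 and 0.66 without all libraries that stand apart. On day 7 it was -0.21, and 0.01 without d7_WT_386. The medians over all genes tested were -0.0030, -0.0045 and -0.0048. All 20 tested members had a positive fold change on day 0, 9 of 28 on day 3 and 2 of 26 on day 7.

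The make-up of the messenger pool was compared between WT and KO without a test. mt-Co1 gave 59.2 ± 2.74% of messenger counts in WT and 59.1 ± 1.30% in KO on day 3 (SD, n = 7 and 8), and 59.3 ± 1.92% and 59.9 ± 1.46% on day 7 (n = 7 each). mt-Nd1 gave 10.3 ± 0.902% in WT and 9.05 ± 0.544% in KO on day 7. Between the library with the lowest and that with the highest share on days 3 and 7, mt-Co1 differed 1.13-fold.

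Per kb of gene, mean levels in WT on day 3 were 65526 CPM per kb for mt-Co1, 22012 for mt-Cytb, 18504 for mt-Nd1, 6872 for mt-Nd2, 5652 for mt-Nd4, 5541 for mt-Nd6 and 5422 for mt-Nd5. In the same libraries mt-Rnr2 was at 6818 and mt-Rnr1 at 4374 CPM per kb. The library d3_WT_381 raises all of these means. Without it they were 42482 CPM per kb for mt-Co1, 13665 for mt-Cytb, 10717 for mt-Nd1, 4267 for mt-Nd2, 3565 for mt-Nd4, 3299 for mt-Nd5, 3151 for mt-Nd6, 3527 for mt-Rnr2 and 2322 for mt-Rnr1. The levels of mt-Nd2, mt-Nd4, mt-Nd5 and mt-Nd6 lay within the spread of the libraries of one another. All were measured in the same libraries, and their order within each library was not compared. mt-Nd4 and mt-Co1 have part of their length in shared windows. In WT on day 0 the order differed, with mt-Rnr2 first at 55648 CPM per kb, then mt-Co1 at 18249 and mt-Rnr1 at 11063.

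From day 3 to day 7 no member was called in WT, and 6 fell in KO. In WT 0 of 26 tested members passed, where 19.3% of all genes tested did, and 2 had an unadjusted p under 0.05. In KO 6 of 27 passed, also where 19.3% of all genes did and 8.83% were called lower, so that the members' share of 22.2% is near the share called in either direction and above the share called lower. The called genes were mt-Ts2, mt-Tl2, mt-Tg, mt-Nd3, mt-Co3 and mt-Atp6. The median log2 fold change of the 8 well-counted messengers was -0.16 in WT and -0.37 in KO, beside 0.013 and -0.0067 for all genes tested.

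mt-Ts2, the transfer RNA that reads one family of serine codons, had lowest, median and highest levels of 0.738, 1.38 and 2.17 CPM in KO on day 3 and 0.136, 0.205 and 0.908 on day 7. Only d7_KO_420, the highest of day 7, overlapped the day 3 range, and the counts behind these levels were 22 to 96 and 6 to 34 per library. The log2 fold change was -2.27 (SE 0.41, adjusted p = 0.000946), by edgeR. mt-Tl2, which lies next to mt-Ts2 and reads leucine codons, was at 0.208, 0.653 and 0.959 CPM on day 3 and 0.0455, 0.102 and 0.294 on day 7, from 10 to 42 and 2 to 11 counts. These ranges met at their edges, and the log2 fold change was -2.11 (SE 0.36, adjusted p = 0.000687). mt-Tg, for glycine, was at 0.624, 1.24 and 1.62 and 0.324, 0.498 and 0.716 CPM, with the highest day 7 library above the lowest day 3 one, and the log2 fold change was -1.27 (SE 0.24, adjusted p = 0.00153).

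These 3 transfer RNAs were called in each of 15 fits that left out 1 library. In the fit of all 38 libraries mt-Tg had an adjusted p of 0.0906. Their levels are low, and a filter at a mean of 1 CPM removes all 3. All 3 touch or overlap a gene on both sides, and read pairs that fit several genes were not kept. Their counts need not follow the levels of the transfer RNAs themselves, which was not tested. In WT the same genes had a wide spread. mt-Ts2 was at 0.0344, 0.858 and 3.03 CPM on day 3 and 0.178, 0.321 and 5.78 on day 7, where the highest value is d7_WT_386 and the next is 0.517. Its log2 fold change in WT was -0.32 (SE 0.86, adjusted p = 0.836), and -2.0 without d7_WT_386 (adjusted p = 0.0394, edgeR). The same library held the highest WT day 7 level of mt-Tl2 (2.59 CPM, next 0.216) and of mt-Tg (4.18 CPM, next 0.674). A difference between genotypes in the change from day 3 to day 7 was called for 0 of 29 members and for 0 of 16371 genes (edgeR interaction term), with 4 members at an unadjusted p under 0.05.

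mt-Nd3, a small membrane subunit of complex I that follows mt-Tg on the genome, had 10.8, 15.7 and 21.4 CPM in KO on day 3 and 9.13, 12.4 and 13.7 on day 7, with overlap. Its log2 fold change was -0.50 (SE 0.15, adjusted p = 0.0263), by edgeR, and leaving out 1 library gave adjusted p of 0.00633 to 0.0565, under the threshold in 10 of 15 cases. In the fit of all 38 libraries it was 0.542. In WT it had 5.61, 11.9 and 58.4 and 6.86, 11.8 and 41.6 CPM, and -0.16 (SE 0.52, adjusted p = 0.867). In the printed start of mt-Nd3 only the first bases differ from Gm28438, and its median was 506.5 counts per library.

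mt-Co3 was at 0.104, 0.454 and 43.7 CPM in KO on day 3, with d3_KO_349 highest and the next at 1.63, and at 0.181, 0.286 and 0.803 on day 7. Its log2 fold change of -3.96 (SE 1.28, adjusted p = 0.0394) was -0.66 without that library (adjusted p = 0.513, edgeR), and -0.59 by DESeq2's Wald test (adjusted p = 0.547). In lane 1, which holds nearly all counts of that library, it was -5.14 (adjusted p = 0.0277, edgeR), and in lane 2 the gene had too few counts to be tested. mt-Atp6 was at 0.120, 0.585 and 19.3 CPM on day 3 and 0.181, 0.414 and 1.07 on day 7, with a log2 fold change of -3.10 (SE 1.03, adjusted p = 0.0452), and -2.01 without d3_KO_349 (adjusted p = 0.145, edgeR). It was -2.61 in lane 1 (adjusted p = 0.109, edgeR) and -3.62 in lane 2 (adjusted p = 0.0348). Both calls rest in part on the libraries whose lanes disagree. Leaving out 1 library kept the call in 7 of 15 fits for mt-Co3 and in 6 of 15 for mt-Atp6. Some day 7 libraries also lost it when left out: without d7_KO_367 the adjusted p was 0.0760 for mt-Co3 and 0.0873 for mt-Atp6 (edgeR). By DESeq2's Wald test mt-Atp6 was at -1.86 (adjusted p = 0.113).

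Markers of blood cells moved between the same days. Between days 3 and 7 all 5 general immune, all 6 neutrophil and all 5 macrophage markers rose in both genotypes by edgeR's test. Of the T cell markers 0 of 4 rose in WT and 4 of 4 in KO, and of the B and plasma cell markers 3 of 3 and 2 of 3. Of the small intestine markers 2 of 5 rose in WT and 0 of 5 in KO, and of the fibroblast markers 0 of 5 in both. The summed level of the neutrophil markers was 0.0178 to 34.5 CPM on day 3 and 31.3 to 1393 CPM on day 7. The 34.5 CPM are those of d3_KO_345, and no other day 3 library had more than 2.89. The general immune markers summed to 20.7 to 79.1 CPM on day 3 and 57.4 to 319 on day 7. The lowest, median and highest sums of the epithelial markers were 8450, 9290 and 13350 in WT and 8023, 10677 and 14055 in KO on day 3, and 9334, 10615 and 11525 and 9268, 11272 and 12631 on day 7, in CPM, and 0 of 7 in WT and 1 of 7 in KO were called, the latter lower. The part of blood cells in the fall of the mt-Rnr2 to mt-Rnr1 ratio and of the transfer RNAs was not tested.

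**Figure D4:**
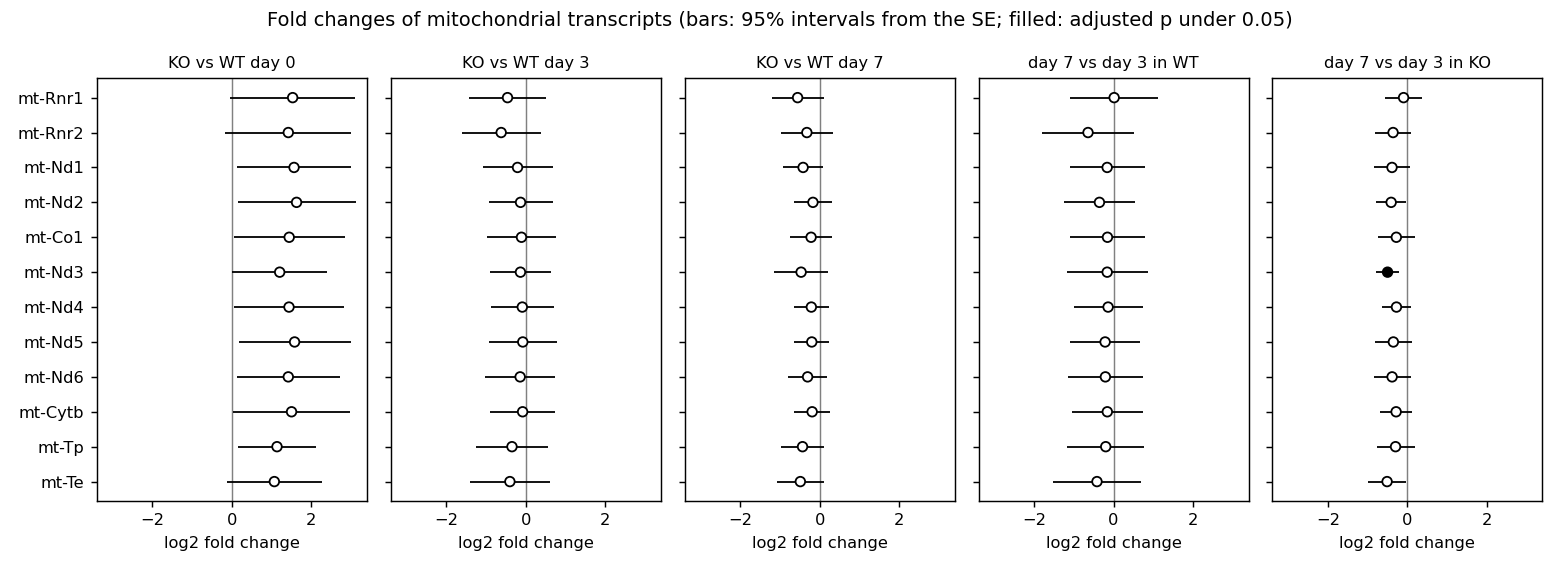
Log2 fold changes (x axes) of 12 members in KO against WT on days 0, 3 and 7 and on day 7 against day 3 in WT and KO; bars are 95% intervals from the SE and filled points passed an adjusted p under 0.05. Among these members only mt-Nd3 in KO, at -0.50, is filled.

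Among the transfer RNAs mt-Tp held most counts, with 65.4 to 81.9% of all transfer counts on day 0 and 87.9 to 94.1% on days 3 and 7. Its median was 16756 counts per library, and the other transfer genes together had 168 to 3165. It is the last gene before the control region, with no gene after it. Strand was ignored for all genes, so reads of either strand in this stretch are counted for mt-Tp. The next were mt-Te with a median of 449 counts, mt-Tl1 for leucine with 277, mt-Tc for cysteine with 191, mt-Tm for methionine with 110 and mt-Ta for alanine with 92.5. mt-Td for aspartate and mt-Tk for lysine had 0 counts in all 38 libraries. mt-Tp was at 179, 367.1 and 2144 CPM in WT and 264, 419.4 and 763 in KO on day 3, and at 293, 426 and 977 and 277, 319.6 and 669 on day 7, all overlapping. Its log2 fold change KO against WT was -0.35 (SE 0.46, adjusted p = 0.816) on day 3 and -0.43 (SE 0.27, adjusted p = 0.492) on day 7, by edgeR.

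In the comparisons with day 0 the library series changes with the day. In WT on day 3, 7 of the 8 well-counted messengers rose and mt-Rnr2 fell, while mt-Nd3 and mt-Rnr1 did not pass. In WT 13 of 27 tested members passed on day 3 (12 higher, 1 lower), where 20.4% of all genes tested were called higher and 25.6% lower, and 18 of 27 on day 7 (16 higher, 2 lower), where 27.8% were called higher and 29.2% lower. In KO 10 of 28 passed on day 3 (8 higher, 2 lower), against 22.6% of the genes tested called as higher and 23.7% as lower, and 14 of 27 on day 7 (8 higher, 6 lower), where 27.3% were called in each direction. The share of members called higher was above that of all genes in WT and close to it in KO, and the share called lower was under that of all genes in all 4 comparisons. With d0_KO_32 left out, 20 of 28 members passed in KO on day 3 (18 higher, 2 lower), where 25.6% of genes were higher and 23.9% lower by the same test. On day 7 it was 22 of 27 (18 higher, 4 lower), where 27.5% were higher and 29.1% lower. In WT on day 3 the median log2 fold change of the 8 well-counted messengers was 3.44, and 2.76 without d3_WT_381.

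Within the messengers the size of the rise differed from gene to gene. In WT on day 3 against day 0 it was 4.50 (SE 0.72, adjusted p = 0.000179) for mt-Nd6, 3.91 (SE 0.67, adjusted p = 0.000332) for mt-Nd5, 3.15 (SE 0.66, adjusted p = 0.00149) for mt-Cytb and 1.84 (SE 0.66, adjusted p = 0.0342) for mt-Co1, by edgeR. mt-Nd6 was at 95.8 to 173 CPM over WT day 0 and at 930.3, 1857 and 10315 (lowest, median, highest) over WT day 3, with no overlap. mt-Rnr2 fell, from 56654 to 128868 CPM on day 0 to 2151, 7146 and 42017 on day 3, also with no overlap, and its log2 fold change was -3.03 (SE 0.69, adjusted p = 0.00274). For mt-Rnr1 it was -1.34 (SE 0.62, adjusted p = 0.0928), which did not pass. Without d3_WT_381 the log2 fold changes were 3.70 for mt-Nd6, 3.20 for mt-Nd5, 2.47 for mt-Cytb, 1.22 for mt-Co1 and -3.98 for mt-Rnr2, all past the threshold, and mt-Rnr1 then passed too (-2.25, adjusted p = 0.000101, edgeR). The library d0_KO_32 carries much of the KO comparison: mt-Co1 had a log2 fold change of 0.29 (SE 0.55, adjusted p = 0.691) on day 3 in KO, and 1.56 without that library.

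The make-up of the messenger pool shows this shift free of scaling. mt-Co1 gave 76.4 to 81.0% of messenger counts over all 9 libraries of day 0, against 55.2 to 62.3% over the 29 later ones. mt-Cytb gave 6.63 to 8.61% and 13.4 to 17.3%, mt-Nd4 1.32 to 1.55% and 4.11 to 5.15%, and mt-Nd6 0.320 to 0.402% and 1.30 to 1.87%. None of these ranges overlap, and WT and KO libraries mix within each. For mt-Nd1 the ranges, 7.52 to 9.23% and 8.42 to 11.3%, do overlap. mt-Nd3 went the other way, with 0.0177 to 0.0246% on day 0 and 0.00684 to 0.0143% later.

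Nuclear genes that serve the mitochondrial genome were compared from lists chosen with earlier results known. Of 44 genes for mitochondrial transcription, RNA processing, modification and decay, 39 for nuclear-encoded respiratory subunits and 12 for maintenance of mitochondrial DNA, 0 were called between KO and WT on day 0, 3 or 7 (edgeR), with 1, 0 and 3 at an unadjusted p under 0.05 on day 0, 2, 0 and 1 on day 3 and 1, 2 and 2 on day 7. Between days 3 and 7 only 1 of the 44 RNA genes was called in WT and in KO, where 19.3% of all genes tested were. This gene was Fastkd3, of a family of mitochondrial RNA-binding proteins. Fastkd3 rose from 16.8 ± 1.86 to 23.8 ± 3.88 CPM in WT and from 17.4 ± 1.03 to 21.1 ± 2.28 in KO. Its log2 fold changes were 0.48 (SE 0.11, adjusted p = 0.00580) and 0.24 (SE 0.066, adjusted p = 0.0166), by edgeR. Peo1, the helicase that unwinds mitochondrial DNA, fell by 0.41 on the log2 scale in WT (SE 0.14, adjusted p = 0.0474), from 23.5 ± 3.48 to 17.9 ± 3.72 CPM. It was the only gene called of the 12 maintenance genes in WT, and 0 of 12 were called in KO. None of the 39 subunit genes was called between these days in WT or KO by edgeR, with 0 and 2 at an unadjusted p under 0.05, where 19.3% of all genes tested were called in each genotype.

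Against day 0 more of these genes passed, again with the change of library series. Of the 44 RNA genes 17 rose and 1 fell in WT on day 3, and 16 rose and 3 fell in KO, by edgeR. Over all genes 20.4% rose and 25.6% fell in WT, and 22.6% rose and 23.7% fell in KO. Tbrg4, which acts on mitochondrial RNA, was at 62.3 ± 5.60 CPM in WT on day 0 and 88.7 ± 1.14 on day 3 (log2 0.50, SE 0.077), and Mtpap, the mitochondrial poly(A) polymerase, at 21.4 ± 1.35 and 30.6 ± 1.28 (log2 0.50, SE 0.079). Lrpprc, which stabilises mitochondrial messengers, fell from 83.8 ± 5.64 to 67.0 ± 6.97 CPM. Of the 39 subunits 14 rose and 0 fell in WT on day 3, among them Atp5j of ATP synthase by 1.20 and Uqcrq of complex III by 1.36 in log2. Of the 12 maintenance genes 2 rose and 3 fell. The catalytic subunit of the mitochondrial DNA polymerase, Polg, fell from 79.3 ± 4.12 to 54.9 ± 8.53 CPM, and its accessory subunit, Polg2, from 22.5 ± 5.53 to 12.5 ± 2.70.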

How the data were processed

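RNA sequencing counts of 38 libraries of mouse intestinal epithelial cells were analysed, grouped by the genotype and day in the labels. Each deposited file lists raw counts for every gene of 1 lane, made per the file headers with featureCounts 1.6.2 on read pairs with strand ignored and with no option to keep reads that fit several places or several genes. The submitters' processing notes name Trim Galore, STAR, featureCounts 1.5.2 and the GRCm38 build, and the labels' protocols give a stranded mRNA kit and pairs of 50 bases. Counts of the 2 lanes of each library were summed. Members were all genes on chromosome MT, and from the lists of nuclear genes up to 4 called genes per direction and comparison with the smallest p and a mean log2 CPM of at least 1 were open to naming. Members and lists were chosen with earlier results of these data known.

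Each comparison was fitted on all genes of its groups with edgeR 4.0.16 (R 4.3.3): filterByExpr, TMM scaling, the quasi-likelihood test, and Benjamini-Hochberg adjustment over all genes tested, called at an adjusted p under 0.05. On data simulated for KO against WT on day 7 over 15455 genes, 92 of 96 genes changed 2-fold and 98 of 98 changed 4-fold were recovered with 12 false calls. All genes were simulated with the same spread between libraries. The spread of the mitochondrial genes was not used, so the simulation does not give the chance of calling a change in them. Ratios of raw counts were compared on the log2 scale by exact two-sided permutation tests over libraries (scipy 1.17.1). Alternatives were DESeq2 1.42.0, other scalings and filters, each lane alone, all libraries in 1 fit, an immune score as covariate and leaving out libraries. Lane 2 alone, leaving out the 4 libraries that stand apart and the test of ratio differences between genotypes were added after the data were seen. Windows shared with nuclear transcripts were found by exact matches of 50 bases, on either strand, to the other GENCODE M21 transcripts. Libraries are separate animals, and floors of 3 counts cover counting error only. The intervals drawn for log2 fold changes come from the SE of the edgeR fit, which includes the spread between libraries.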

Additional observations from a re-analysis of the deposited data

Results flagged for a closer look

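Of 120 sets of libraries of 1 group, 40 had a library far from the others of its group, and chance gives about 1 in 20. The sets hold related values of the same libraries and are not independent, so the number is no measure against chance. No cause was tested for any of the 40. Most come from 3 libraries. In d0_KO_32 the messengers took 16.2% of counts (next library of its group 5.18%), the ribosomal RNAs 45.6% (12.4%), the transfer RNAs 0.0176% (0.00832%) and all together 61.7% (17.5%). Its levels after TMM scaling, as for all CPM here, were 253205 CPM for mt-Co1, 30607 for mt-Nd1, 1136 for mt-Nd6, 112200 for mt-Rnr1, 822710 for mt-Rnr2 and 257 for mt-Tp, and its mt-Nd6 to mt-Cytb ratio was 0.0398 (next 0.0482). In d3_WT_381 the shares were 37.6% for messengers (next 15.8%), 3.95% for ribosomal RNA (1.18%), 0.158% for transfer RNA (0.0511%) and 41.7% for all (16.95%). Its levels were 314861 CPM for mt-Co1, 62426 for mt-Nd1, 10315 for mt-Nd6, 15935 for mt-Rnr1, 42017 for mt-Rnr2 and 2144 for mt-Tp, and it had 10.1 mt-Atp6 counts per M mt-Co1 counts. In d7_WT_386 the messengers took 24.5% (next 15.9%) and all members 26.6% (17.4%), with 171679 CPM for mt-Co1, 31073 for mt-Nd1 and 4900 for mt-Nd6 and 45.2 mt-Co2 counts per M mt-Co1 counts.

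Messengers with nuclear copies, and the copies, gave most of the others, in counts per M mt-Co1 counts. mt-Atp6 was at 12.0 in d0_KO_53, 202 in d3_KO_349 and 19.3 in d7_WT_431. mt-Co3 was at 644 in d3_WT_353 and 457 in d3_KO_349, and mt-Co2 at 70.9 in d3_KO_350. Gm13340 was at 2814 in d3_WT_487 and 883 in d3_KO_385, and Gm29216 at 1318 in d7_WT_393. Among the other members, mt-Tp was at 67.1 CPM in d0_WT_31 and 669 CPM in d7_KO_420, and the mt-Rnr2 to mt-Rnr1 ratio was 6.90 in d0_WT_46 (next 8.61).

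The genotype difference in the log2 ratio of mt-Rnr2 to mt-Rnr1 differed by 0.344 between day 7 and day 3 (exact permutation test with genotype labels exchanged within each day, adjusted p = 0.00154 over 5 ratios).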

How the results depend on the processing

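The number of members called between KO and WT was 0 under every alternative run. Without the 4 libraries that stand apart the number called became 1 for day 7 against day 3 in WT, 21 for day 3 against day 0 in KO and 22 for day 7 against day 0 in KO, where 27.5, 50.6 and 56.6% of all genes were called. It was 1 for day 7 against day 3 in WT with all libraries in 1 fit, where 22.4% of all genes were called. With a mean of at least 1 CPM, where fewer genes are tested, it was 3 for day 7 against day 3 in KO and 8 for day 7 against day 0 in KO. There 19.4 and 53.8% of all genes were called. Leaving out 1 library gave 0 to 2 for day 7 against day 3 in WT, 8 to 20 for day 3 against day 0 in KO and 10 to 22 for day 7 against day 0 in KO. With no library left out the shares of all genes called were 19.3, 46.3 and 54.6% in this order. Without d0_KO_32, which gave the 20 and the 22, they are given above by direction. For the other fits they are not given, so these counts are no result about the members. In WT the member called without d7_WT_386 besides mt-Ts2 was mt-Ti (-1.96, adjusted p = 0.0435, edgeR).

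The median log2 fold change of the well-counted messengers moved without the libraries that stand apart to 0.15 (KO against WT, day 0), 0.66 (day 3), 2.76 (day 3 against day 0 in WT), 3.38 (the same in KO) and 2.94 (day 7 against day 0 in KO). Leaving out 1 library gave 0.15 to 1.73, -0.28 to 0.58, -0.42 to 0.51 (day 7 against day 3 in WT), 1.52 to 3.31 (day 3 against day 0 in KO) and 1.18 to 2.94 (day 7 against day 0 in KO). The ratio of mt-Rnr2 to mt-Rnr1 on day 7, KO against WT, was 0.267 in log2 without the libraries that stand apart, and 0.198 to 0.280 leaving out 1 library. On day 3 it was -0.133 to -0.0762, and mt-Nd5 to mt-Nd1 on day 7 was 0.134 to 0.220. For 3 members an alternative passed the threshold with the other sign than the edgeR fit of all libraries of the compared groups. That fit gave -0.20 for mt-Nd3 (day 3 against day 0 in KO), which was not called. mt-Nd3 was at 0.95 without the libraries that stand apart and 0.88 without d0_KO_32 alone. Among the others it went down to -0.46, without d0_KO_53. mt-Tg (day 7 against day 0 in WT) was at -0.82 by DESeq2 and -0.83 without the libraries that stand apart. mt-Tm (day 7 against day 0 in KO) was at 1.19 without those libraries and also without d0_KO_32 alone. Among the others it went down to -0.72, without d0_KO_60. The cause was not tested.

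Of 2319 values of single members under the other alternatives 27 lost and 42 gained a call. Leave-one-out fits were not run for the edgeR interaction term or for the later day in comparisons with day 0. Depth limits the low transfer RNAs and the messengers with nuclear copies. No paired analysis was possible because animal numbers do not repeat between groups.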
